A study of Mus musculus with 12 samples.

Results

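The 7 genes described are Zp2, Zp3, Padi6, Oas1d, Nobox, Dazl and Tdrd5, oocyte and germ-line genes that were taken by their symbols from the 11806 genes of the authors' comparison of vitrified with fresh mouse ovarian follicles. The 6 vitrified follicles, which had been frozen without ice crystals into a glass, and the 6 fresh follicles were those of CD-1 mice, which are outbred, at an age of 16 days. Follicles of both groups were cultured singly in 0.5% alginate over 8 days. Their medium contained recombinant follicle-stimulating hormone at 10 mIU/mL, and RNA of each lysate went into a Smart-seq library. The genes were selected on their role and with their fold changes and p-values in this same comparison known, so these values are given as a description and no test was made over the set. The sources used here do not give the vitrification procedure, its timing relative to culture or the animal behind each follicle. The deposited p-values therefore take in counting error and the spread between these follicles. They could be too small if follicles within a group shared animals, and the effect of animals shared across the groups is not known here.

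An ovarian follicle is a single oocyte wrapped in granulosa cells, with theca cells outside them. The growing oocyte secretes the zona pellucida, a glycoprotein coat built from ZP proteins that sperm must bind and cross, and stores messenger RNAs and proteins that carry the embryo through its first divisions, before its own genome takes over. Maternal-effect genes are those whose product must come from the mother in this way. Germ-line RNA genes encode proteins that bind, silence or store RNA in germ cells.

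Of the 7 genes, 5 had log2 fold changes above 0, at 0.83 to 1.29, and 2 had log2 fold changes below 0, at -1.08 and -2.14, in vitrified over fresh follicles in the authors' deposited table. Zp2, Zp3, Padi6, Oas1d and Nobox made up the first set, and the germ-line RNA genes Dazl and Tdrd5 the second. A split by role was not tested. Only Tdrd5, a germ-line gene with Tudor domains, passed the threshold of 0.05 on the authors' adjusted p. It was 2.11-fold lower in vitrified follicles in the authors' deposited table, and its cell of origin in these lysates was not tested. The call of Tdrd5 did not hold when its p was read against a t distribution with 10 degrees of freedom (adjusted p = 0.51). In that setting 0 of the 10963 tested genes were called, so the lost call says nothing particular about Tdrd5. An adjusted p was given for 5 of the 7 genes and 1 was called, beside 0.529% of the 10963 tested genes, of which 0.246% were called higher and 0.283% lower. A change of at least 2-fold was listed for 5 of the 7 genes, beside 2.96% of all 11806 genes. It was upward for 3 of the 7, beside 1.07% of all genes, and downward for 2, beside 1.89%. An unadjusted p under 0.05 was reached by 2, Dazl and Tdrd5, beside 6.88% of all genes. As the genes were proposed from this comparison, nothing is read from these shares. The 95% intervals of the log2 fold changes included 0 for 5 genes and left it out for Dazl and Tdrd5.

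**Figure D1:**
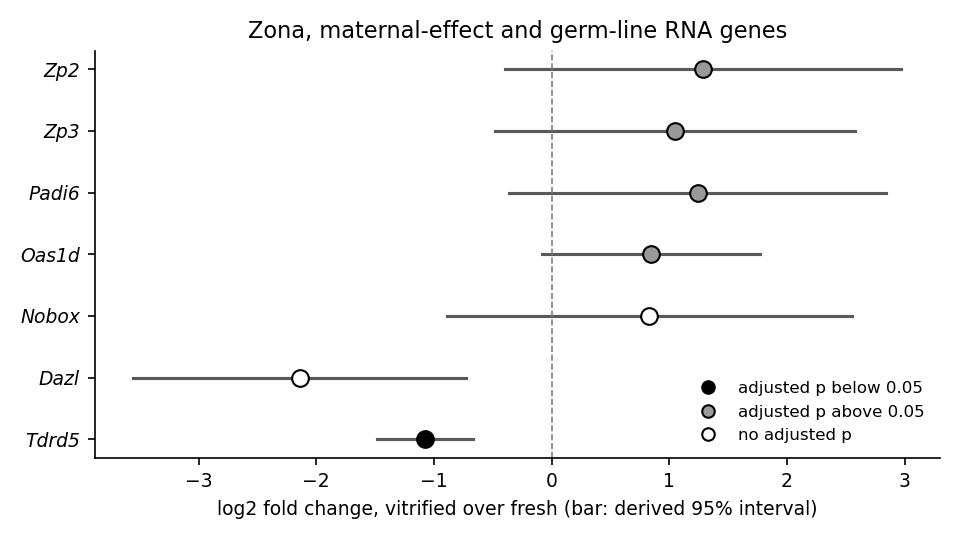
Log2 fold change of the 7 genes, vitrified over fresh follicles, with a derived 95% interval (bar) over 6 vitrified and 6 fresh follicles. Tdrd5 has the shortest interval and is the gene past the threshold, and the 5 upper genes all have intervals that cross 0.

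Each gene has 1 total pooled over the libraries, so no level per follicle can be given and it cannot be said which follicles were high or low. All totals together came to 23783958, and the median gene had 273. In a whole-follicle lysate, fewer cells of a type and less RNA per cell cannot be told apart. Granulosa cell markers were present, with rows for 9 of 10 listed, while 0 of 4 red blood cell and 1 of 5 immune markers had rows analysed here. Of the other cells a follicle can carry, all 7 theca markers had rows, 6 of them with log2 fold changes above 0 and the 7 with a median of 1.19, vitrified over fresh. Rows were found for 5 of 7 endothelial markers, all 5 with values below 0 and a median of -1.42 on the same scale. Of the 11 with an adjusted p, 0 passed the threshold, although 3 theca markers (Aldh1a1, Star and Insl3) had an unadjusted p under 0.05, Insl3 with 60.9% of its windows shared with another gene. So had Lyz2, the 1 immune marker with a row, at -1.05 (p = 0.040), and the granulosa marker Fshr, the receptor for follicle-stimulating hormone, at 0.67 (p = 0.013), neither past the adjusted threshold in the authors' deposited table. Lyz2 shares 7.84% of its windows with another gene. Granulosa markers, Fshr included, were split, with 5 of 9 above and 4 below 0 and a median of 0.03. The part of theca, endothelial, immune or granulosa cells in the values of the 7 genes was not tested.

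Per length of exon, the pooled level of the 7 genes spanned about an order of magnitude and lay far below that of the leading granulosa genes. Padi6 had a total of 129 per kb of exon, Tdrd5 81.2, Zp3 72.0 and Zp2 70.9 per kb. Oas1d had 44.8, Nobox 24.5 and Dazl 11.6 per kb, so that the transcription factor and the RNA-binding protein genes were lowest. No error can be given for these pooled levels, and the order of Tdrd5, Zp3 and Zp2 rests on small differences. Inha, the inhibin alpha subunit gene of granulosa cells, had 760572 per kb, 5908 times the level of Padi6. The oocyte growth factor gene Gdf9, at 124 per kb, stood next to Padi6. Together the 7 genes held 0.00573% of the sum of all totals.

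**Figure D2:**
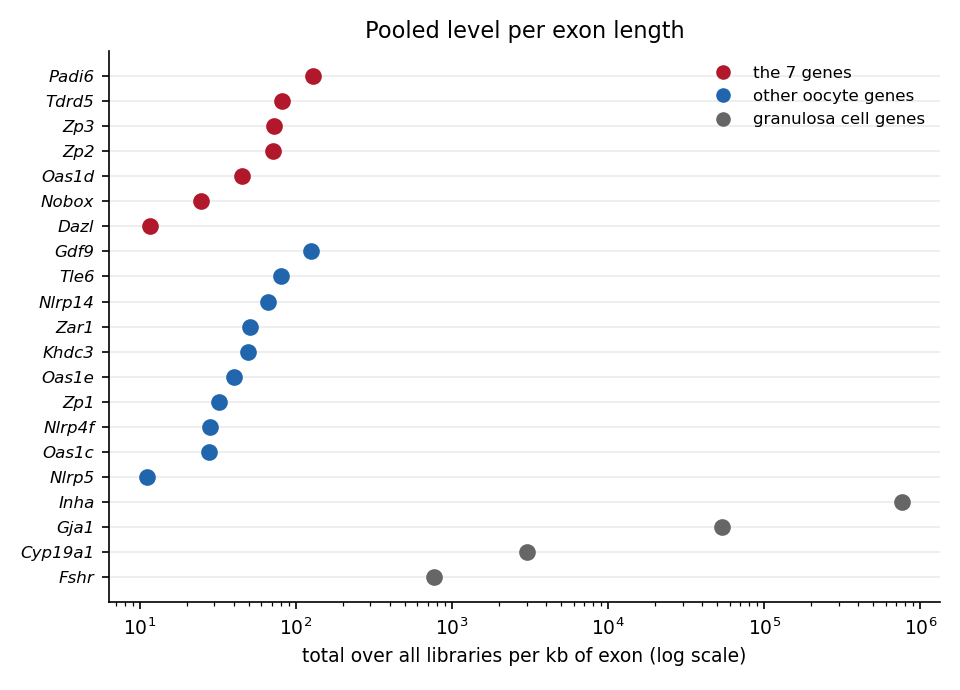
Total over all libraries per kb of annotated exon (log scale) for the 7 genes, 10 other oocyte genes and 4 granulosa cell genes, as pooled values without error. The 7 genes lie between 11.6 and 129 per kb, and Inha at 760572. The genes beside the 7 are a selection. Granulosa markers left out ran from Kitl at 78.0 to Inhba at 67033.5 per kb. Related genes left out ran from Tdrd7 at 15.9 to Zbed3 at 3458 per kb.

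Zp2 and Zp3 encode structural proteins of the zona, and ZP2 holds the part that human and mouse sperm bind. Zp2, on chromosome 7 from 120126772 to 120145291 on the minus strand in GRCm38, had a total of 193 and was 2.45-fold higher in vitrified follicles (p = 0.133, adjusted p = 0.88) in the authors' deposited table. Its log2 fold change of 1.29 had a standard error of 0.86, and the 95% interval ran from 1.31-fold lower to 7.85-fold higher. Zp3, on chromosome 5 from 135980099 to 135988624 on the plus strand, had a total of 95.3 and was 2.07-fold higher (p = 0.179, adjusted p = 0.93) in the authors' deposited table. Its interval, from 1.39-fold lower to 5.97-fold higher, overlapped nearly all of that of Zp2. Neither zona gene was thus shown to differ from no change beyond its error. Zp1, which crosslinks the zona filaments, stood at a log2 value of 0.52 in the authors' deposited table, with a derived standard error of 0.65. Furin, a protease that can cut ZP precursors, had 0.01, and Fetub, the gene of a plasma protein that restrains zona hardening, -0.01 in the authors' deposited table. Of these 3 other zona genes with rows, 0 were called in either direction.

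Padi6 encodes a peptidylarginine deiminase family member of the oocyte's cytoplasmic lattices, which belongs to the subcortical maternal complex and is needed for the embryo's first cleavages. It lies on chromosome 4 from 140727355 to 140742643 on the minus strand and had a total of 326, with a 2.36-fold higher value in vitrified follicles (p = 0.129, adjusted p = 0.88) in the authors' deposited table. Its interval ran from 1.28-fold lower to 7.17-fold higher. No other deiminase gene was analysed here (0 of 4). The 5 other genes of the subcortical maternal complex with rows had a median log2 fold change of 0.20, 4 above and 1 below 0, and 0 were called. Nlrp4f had 0.76 (p = 0.070) and Nlrp5, known as Mater, 0.92 (p = 0.206) in the authors' deposited table. For Nlrp5, with a total of 53.7, no adjusted p is listed in the authors' deposited table. Tle6, a corepressor-related subunit, had -0.27 and Khdc3, also called Filia, 0.13 in the authors' deposited table. Khdc3 shares 42.4% of its windows with another gene, so its count is uncertain. Zbed3, whose product partners the complex, had a log2 fold change of 0.20 on a total of 7715 in the authors' deposited table, with a derived standard error of 0.51.

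Oas1d is an oocyte-expressed relative of the 2'-5' oligoadenylate synthetases, the antiviral enzymes that sense double-stranded RNA, and its mouse protein lacks synthetase activity. The gene lies on chromosome 5 from 120914536 to 120921652 on the plus strand in a cluster of Oas1 genes. It had a total of 90.6 and was 1.79-fold higher in vitrified follicles (p = 0.075, adjusted p = 0.79) in the authors' deposited table. Its interval, from 1.06-fold lower to 3.41-fold higher, was the narrowest among the 5 genes with values above 0. Other genes, mostly Oas1c, hold 7.59% of its 50-base windows, so a small part of its count is uncertain. Its neighbours Oas1c and Oas1e had log2 fold changes of 0.46 and 0.27 in the authors' deposited table. Oas1c and Oas1e share 15.6% and 12.7% of their windows with another gene. Their unadjusted p-values were 0.426 and 0.657, and 0 of these 2 were called. The interferon-induced relatives Oas1a, Oas2 and Oas3 were not analysed here.

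Nobox encodes a homeobox transcription factor of the oocyte that is needed for follicle growth past the primordial stage and for the expression of many oocyte genes. It lies on chromosome 6 from 43303674 to 43309554 on the minus strand, and its total of 49.2, or 4.10 per library over the 12 libraries, carries no adjusted p in the authors' deposited table. It was 1.78-fold higher in vitrified follicles (p = 0.345) in the authors' deposited table, with a derived interval from 1.86-fold lower to 5.86-fold higher. Rows were found for 2 other listed oocyte transcription factors. Taf4b, which encodes a TFIID subunit, had a log2 fold change of 0.05 on a total of 1933 in the authors' deposited table. Foxo3, which holds primordial follicles in reserve and is also expressed outside the oocyte, had -0.33 (p = 0.157) in the authors' deposited table. Neither was called, and which cells of the lysate their transcripts came from was not tested.

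Dazl encodes an RNA-binding protein that raises the translation of stored messenger RNAs as the mouse oocyte matures. It lies on chromosome 17 from 50279395 to 50293636 on the minus strand. Its total of 44.3, or 3.69 per library, was the lowest of the 7 genes. Its difference was the largest of the 7, at 4.41-fold lower in vitrified follicles (p = 0.0030) in the authors' deposited table. The interval ran from 1.66-fold to 11.8-fold lower. No adjusted p was given, as for all 843 genes with a total of at most 59.4, so Dazl is neither called nor cleared by the authors' test. Adjusted over every gene of the table instead, its p became 0.23. Over the whole transcriptome, 27 genes had a log2 fold change at or below that of Dazl, and 19 of them belonged to the 843 genes without an adjusted p. Among those 843 genes, 6 had a p at or below that of Dazl. Other genes that bind or store messenger RNA in germ cells were split, with 4 of 8 above and 4 below 0, a median of 0.02 and 0 called. Dazap1, whose product binds DAZ proteins, had a log2 fold change of 0.59 (p = 0.142), and Pum2, whose protein represses messenger RNAs in many cell types, had -0.27 in the authors' deposited table. Ddx6, which encodes a helicase of RNA granules, had 0.17 in the authors' deposited table. Zar1, a maternal-effect gene for RNA storage in oocytes, had 0.67, Cpeb1, whose protein controls cytoplasmic polyadenylation, 0.51, and Btg4, which helps to clear maternal messenger RNA, -0.57, none past the threshold in the authors' deposited table. Another gene's transcripts hold 31.6% of the windows of Zar1, so its count is uncertain.

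Tdrd5 encodes a protein with Tudor and LOTUS domains that is known from mouse spermatogenesis, where it is needed for germ granules and for silencing of transposons by piRNAs. It lies on chromosome 1 from 156255296 to 156303664 on the minus strand. It had a total of 563, the highest of the 7 genes, and its log2 fold change was -1.08 (p = 1.9e-07, adjusted p = 2.8e-04) in the authors' deposited table. The interval ran from 1.59-fold to 2.79-fold lower. Tdrd5 had the seventh lowest p of all genes and the sixth lowest among the 31 genes called lower. Read against a t distribution (10 degrees of freedom) instead of a normal one, the call ended, with an adjusted p of 0.51 and 0 genes called in all (525 at an unadjusted p under 0.05). Over 176 exonic bases Tdrd5 overlaps 4930518J20Rik, an antisense gene on the plus strand, and since the use of strand in counting is not given, reads there cannot be told apart. Of its 50-base windows 4.03% also occur in another gene, with this same antisense gene as the main partner. The 4 other Tudor domain and piRNA pathway genes with rows had log2 fold changes from -0.31 to 0.33 and a median of 0.06, and 0 were called. Tdrd3 had 0.33 (p = 0.252), Tdrd7, another gene of germ granules, -0.31 (p = 0.575), and Snd1, a Tudor gene expressed in most cells with a total of 2194, 0.03 in the authors' deposited table. The other 18 genes of that list, the piRNA-binding Piwil genes and Ddx4 among them, were not analysed here.

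**Figure D3:**
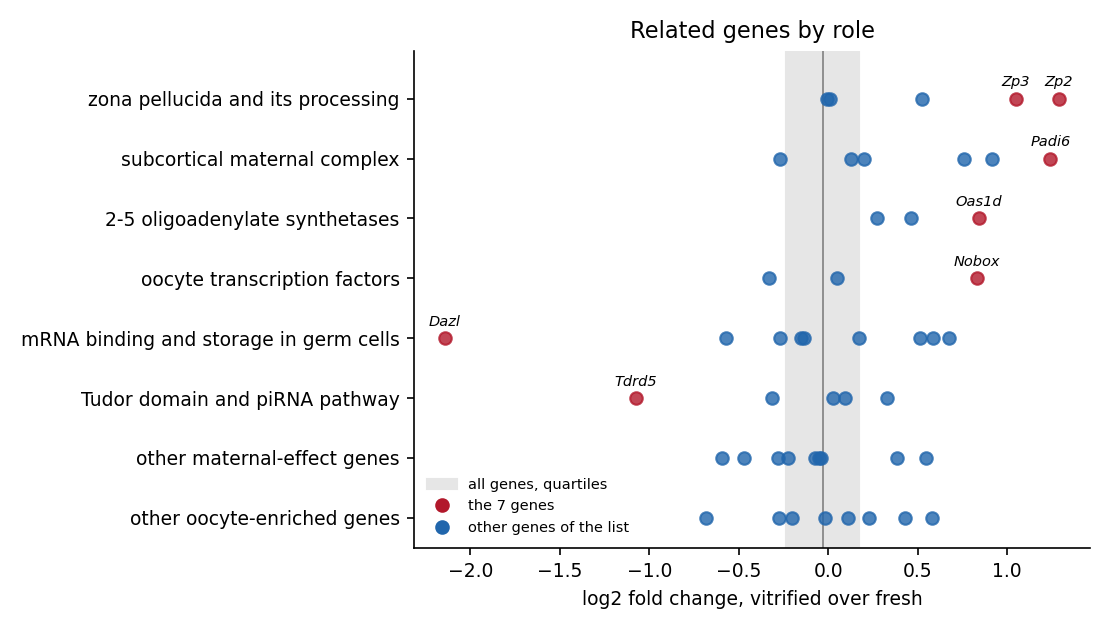
Log2 fold change, vitrified over fresh follicles, of each listed gene with a row, by role. The grey band spans the quartiles of all genes and the line their median of -0.03. The 7 genes stand at the outer ends of their lists, but were chosen with these values known, so nothing is read from their position.

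Over all 9 lists of related genes, 41 genes other than the 7 had rows. Their median log2 fold change was 0.03, against -0.03 for all genes, and 0 were called, beside 0.529% of tested genes. An unadjusted p under 0.05 was reached by 1 of the 41. This was Ago2, an Argonaute gene of small RNA silencing that the mouse embryo needs from the mother, with a log2 fold change of -0.59 (p = 0.0055, adjusted p = 0.30) in the authors' deposited table. Other maternal-effect genes, Ago2 among them, had 2 of 9 values above and 7 below 0, with a median of -0.07, and 0 were called. The oocyte gene Nlrp14 had 0.55 (p = 0.319), the chromatin remodeller gene Smarca4 -0.47, Trim28, a corepressor that guards imprints, -0.28, and the chromatin reader gene Brwd1 -0.05 in the authors' deposited table. Other oocyte-enriched genes were evenly split, as 4 of 8 were above 0 and 4 below, and 0 were called. The oocyte growth factor genes Bmp15 and Gdf9 had log2 fold changes of 0.58 and 0.43, the oocyte connexin gene Gja4 -0.68 and the receptor gene Kit 0.11, with p-values of 0.284, 0.426, 0.334 and 0.841 in the authors' deposited table. Their standard errors were 0.54, 0.54, 0.71 and 0.54, so none was shown to differ beyond its error.

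The 7 genes differed widely in their error. The standard error derived from the fold change and its p takes in counting error as well as the spread between follicles. Zp2 had an error of 0.86, against a median of 0.33 for the 2883 genes with a total within 1.5-fold of its own, and 99.5% of those genes had a smaller error. Padi6 had 0.82, against a median of 0.27 for 2822 such genes, 99.8% of them with a smaller error. Zp3 had 0.78, against 0.44 for 2609 genes, 98.5% of them with a smaller error. The zona genes and Padi6 thus stood among the least precisely measured genes of their total. Nobox, with 0.88, and Dazl, with 0.72, had errors above those of 94.0% and 78.2% of their peers in total, whose medians were 0.58 and 0.61. Oas1d and Tdrd5 were ordinary, with errors of 0.47 and 0.21 against medians of 0.45 and 0.23, above 61.0% and 24.3% of their peers.

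Of the 16 other genes with rows in the zona, maternal complex and oocyte-enriched lists, 15 had an error above the median of genes of like total, and 7 were above the 95th percentile of such genes. Among Tudor domain and piRNA genes other than Tdrd5, 2 of 4 were above that median and 0 above the 95th percentile. For genes that bind or store messenger RNA other than Dazl these were 5 of 8 and 1, and for other maternal-effect genes 6 of 9 and 1. Over all 9 lists, 32 of the 41 genes other than the 7 were above that median and 9 above the 95th percentile. Errors of this kind were not limited to oocyte genes, as 7 of 7 theca markers were above that median and 5 above the 95th percentile, 4 of 5 endothelial markers were above both, and so were 3 of 3 stroma markers. Among granulosa markers 4 of 9 were above the median and 1 above the 95th percentile. These shares are a description, as errors come from the contrast with which the genes were proposed, and genes of 1 cell type share their follicles.

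**Figure D4:**
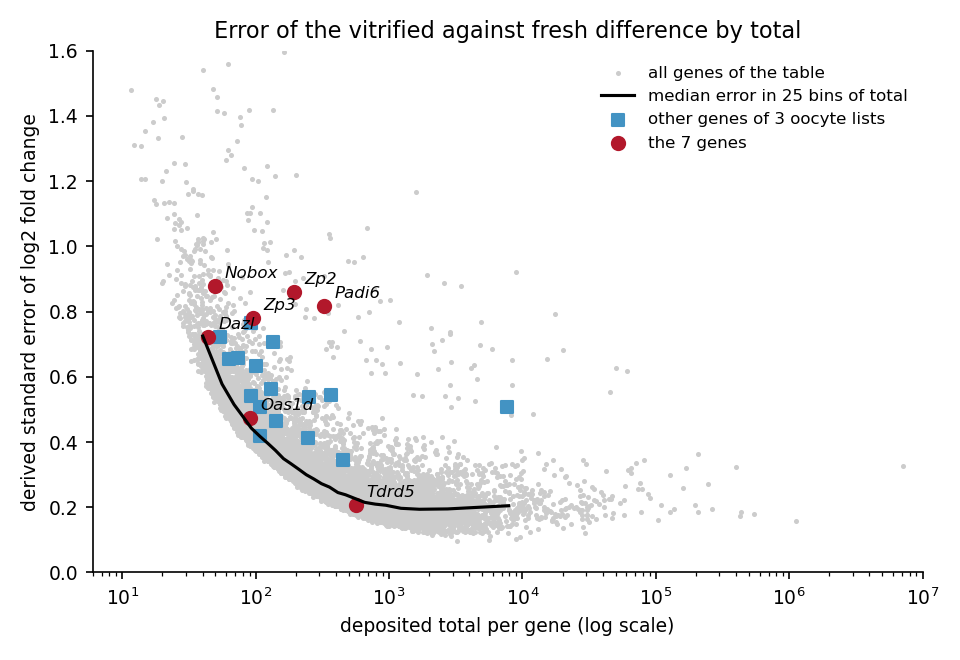
Derived standard error of the log2 fold change against the deposited total (log scale), 1 point per gene, with the median by total (line), the 16 other genes of 3 oocyte lists (squares) and the 7 genes (red). Zp2, Padi6 and Zp3 lie well above the line and Tdrd5 on it, and 31 genes with an error above 1.6 lie outside the plot.

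Promoter sequences were compared as a feature that the choice of genes did not use. Windows from 250 bases before to 50 bases after the start, from RefSeq on GRCm38.p6, were matched for 5 of the 7 genes, Zp3, Padi6, Nobox, Dazl and Tdrd5. Zp2 and Oas1d were not matched. The Tdrd5 window, from 156303299 to 156303598, lies wholly inside the gene span given above, which on the minus strand starts at 156303664. The RefSeq start used for Tdrd5 thus differs from the start of that span. Zona genes are known targets of FIGLA, an oocyte factor that binds E-boxes, and the windows of Zp3 and Padi6, both among the genes with values above 0, are shown with each E-box (CANNTG, a motif that reads the same on both strands) in capitals.
Zp3, chr5:135979855-135980154, plus strand: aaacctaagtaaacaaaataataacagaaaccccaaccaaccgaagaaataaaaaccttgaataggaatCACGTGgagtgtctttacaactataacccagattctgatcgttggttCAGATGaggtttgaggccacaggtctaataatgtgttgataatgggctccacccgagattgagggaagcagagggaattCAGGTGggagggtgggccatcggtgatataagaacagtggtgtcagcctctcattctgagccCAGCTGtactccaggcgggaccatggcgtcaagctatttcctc
Padi6, chr4:140742594-140742893, minus strand: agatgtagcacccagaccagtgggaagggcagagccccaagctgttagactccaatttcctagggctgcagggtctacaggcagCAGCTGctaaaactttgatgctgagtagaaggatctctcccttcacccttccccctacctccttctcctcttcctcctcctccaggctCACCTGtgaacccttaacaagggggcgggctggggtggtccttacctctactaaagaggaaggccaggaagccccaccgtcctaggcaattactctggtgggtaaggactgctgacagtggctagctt

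Zp3 held 4 E-boxes, at -181, -134, -55 and 7 bases from the start, counting the first transcribed base as 0. The one at -181 read CACGTG, a form present in 7.15% of all 32851 windows, whereas CANNTG in any form was in 72.3% of them. Its window also held the TATA element TATAA, searched on both strands, at -29 and -160, as 24.9% of all windows did at least once. Padi6 held 2 E-boxes, at -166 and -78, and no TATAA. It had 1 match to TAATTG, a homeobox site of the kind NOBOX binds, at 8 bases from the start on the opposite strand, a motif in 8.00% of windows. It also held GGGCGG, the GC box bound by SP factors and searched on both strands, at -56, as 35.7% of windows did. Nobox had 2 E-boxes, at -137 and -50, and none of the 5 windows but that of Padi6 held GGGCGG or TAATTG.

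The windows of Dazl and Tdrd5, the genes with values below 0, held the most CpG of the 5 windows. They are shown with each CpG in capitals, a marking not used for the windows above.
Dazl, chr17:50293571-50293870, minus strand: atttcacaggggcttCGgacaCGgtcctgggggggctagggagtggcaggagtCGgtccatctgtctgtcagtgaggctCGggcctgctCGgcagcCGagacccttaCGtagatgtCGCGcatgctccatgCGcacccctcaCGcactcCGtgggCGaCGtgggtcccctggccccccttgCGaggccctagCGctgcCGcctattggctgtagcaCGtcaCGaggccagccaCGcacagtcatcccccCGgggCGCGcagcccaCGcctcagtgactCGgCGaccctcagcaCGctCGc
Tdrd5, chr1:156303299-156303598, minus strand: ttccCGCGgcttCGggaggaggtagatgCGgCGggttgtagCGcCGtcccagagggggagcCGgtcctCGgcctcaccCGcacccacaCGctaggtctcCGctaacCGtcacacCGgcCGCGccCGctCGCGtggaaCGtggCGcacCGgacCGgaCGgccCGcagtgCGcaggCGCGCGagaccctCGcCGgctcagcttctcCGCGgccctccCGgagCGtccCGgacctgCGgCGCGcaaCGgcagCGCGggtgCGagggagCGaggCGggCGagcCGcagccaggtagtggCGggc

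Tdrd5 held 48 CpG sites at a GC content of 76.0%, more CpG than 98.8% of all windows, and Dazl 28 at 68.7%, more than 85.8% of them. Zp3 held 7 at 46.3%, and Padi6 2 at 56.0%, at or below the median of 7 over all windows. Nobox, whose value was above 0, lay between, with 13 at 65.0%, more CpG than 62.1% of all windows. CpG-rich starts are common to many germ-line genes whose promoters are methylated in other tissues. Dazl had 1 E-box, at -192, and Tdrd5 had 0, and neither window held TATAA. A match describes letters in a window and is no evidence of binding, and with 5 windows no relation to the fold changes was tested.

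**Figure D5:**
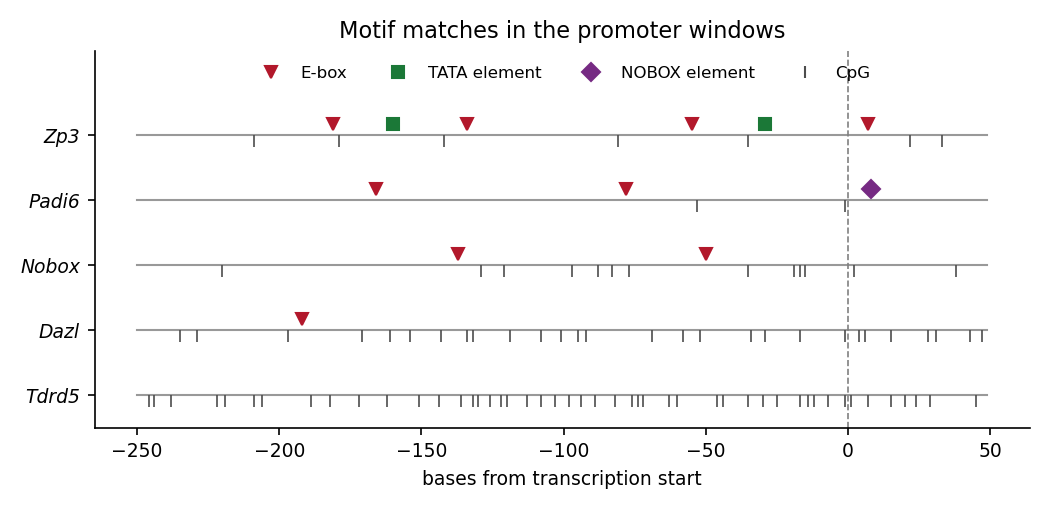
Position of E-boxes (triangles), TATAA (squares), TAATTG (diamond) and CpG sites (ticks) in bases from the RefSeq transcription start for 5 of the 7 genes. E-boxes number 4 in Zp3 and 0 in Tdrd5, and CpG sites 7 and 48.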

How the data were processed

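The authors deposited 1 table of their comparison of 6 vitrified with 6 fresh follicles, grouped here by the sample titles. Per the file headers it gives per gene a total count, the log2 fold change, a signed linear fold and 2 p-values, raw and adjusted by a step-up method. Bowtie2, HISAT2, Partek, DESeq2 and the build mm10 are named in the submitters' processing notes, without versions or roles. How reads were counted, whether by strand, with which annotation and on what scale is something the sources used here do not give. The deposited log2 and p-value columns were used as given, with the authors' adjusted p below 0.05 as the call. A count model was not possible without values per follicle.

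From each log2 fold change and p a standard error and 95% interval were derived, assuming a two-sided normal test (SciPy 1.17.1, Python 3.11.15). Simulated data were drawn under that same normal assumption, so they checked the arithmetic only. Whether the assumption suits the authors' test was not tested. Intervals hold for these follicles only. Coordinates, exon lengths and shared 50-base windows, taken every 25 bases, came from GENCODE M21 (GRCm38), and promoters from RefSeq (GRCm38.p6).

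The members and lists were chosen with earlier results of these data known. Beside the 7 members, the text names from each list every called gene, the 3 with the lowest p and the 2 with the highest total. Tle6, Khdc3, Nlrp14, Zar1, Cpeb1, Btg4 and Fetub, the markers and Inha were named after their values were seen. Some listed genes are not reported here. Alternatives were adjustment with no filter on total or a minimum of 120, a t distribution with 10 degrees of freedom, and centring on the median.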

Additional observations from a re-analysis of the deposited data

How the results depend on the processing

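Of the 4 alternatives, 3 change only the p-value, so fold changes stayed as deposited by construction. Centring moved them by 0.02 on the log2 scale and turned none of the 5 genes with an adjusted p. Nobox and Dazl had an adjusted value only without a filter on total, at 1.00 and 0.23. Of 20 adjusted values in all, 1 changed its side of the threshold, that of Tdrd5 with the t distribution. The values of Nobox and Dazl had no deposited adjusted p to be compared with. With no filter on total 58 genes were called, with a total of at least 120 there were 57, and with fold changes centred on the median 56, against 58 as deposited, and Tdrd5 was the 1 gene of the 7 called in each. With a t distribution of 10 degrees of freedom the count was 0 for all genes (525 at an unadjusted p under 0.05) and 0 for the 7 genes (2 at an unadjusted p under 0.05), and Tdrd5 had an adjusted p of 0.51. The heavier tails of that distribution are what differs by construction, and whether it suits the authors' test is not known here. Over all alternatives the adjusted p of Tdrd5 ran from 2.2e-04 to 0.51. No paired analysis was possible because the table holds no value per follicle, and for the same reason no follicle could be left out. Zp3, Oas1d, Nobox and Dazl have totals under 120 and gave no value at that minimum.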
